A study of Drosophila melanogaster with 17 samples.

Results

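Ageing changed the transcriptomes of the fat body and the midgut of adult Drosophila melanogaster in ways that differed, and the difference between both ageing responses was measured gene by gene. For each gene the change between young and old fat body was set against the change between young and old midgut, as (old minus young fat body) minus (old minus young midgut) on the log2 scale. A positive difference therefore means that the gene rose more, or fell less, with age in fat body than in midgut. The comparison rests on 9 of the 17 libraries of the series, in 4 groups: old fat body (50 days, 3 libraries), young fat body (5 days, 2 libraries), old midgut (50 days, 2 libraries) and young midgut (5 days, 2 libraries). These libraries are labelled as carrying no treatment, and the series' design text calls the young controls wildtype. Strain, sex, mating state and food are not given in the labels, and neither is the number of flies dissected for a library. The series asks what ageing and loss of lamin-B do to both organs. Its other 8 libraries (Lam RNAi and whole gut) entered the fit to estimate the spread between replicates. They also took part in the count filter and the scaling of the libraries. A fit of the 9 libraries alone tested 10925 genes, of which 4013 differed, against 11128 and 4927 in the fit of all 17.

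The fat body is the insect counterpart of liver and adipose tissue. It stores fat and glycogen, secretes yolk and carrier proteins into the blood, and answers infection by releasing antimicrobial peptides. The midgut digests and absorbs food behind a chitin-lined peritrophic matrix, renews its epithelium from intestinal stem cells, and meets microbes every day. Both organs read bacterial peptidoglycan through the IMD pathway, which ends in the NF-kappaB factor Relish. The Toll pathway, which answers Gram-positive bacteria and fungi, is chiefly a fat body pathway.

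Total counts of the 9 libraries were between 32022342 and 78289614, with 11348 to 12240 genes detected. A gene with 0 reads may hold up to 0.0383 to 0.0937 CPM (counts relative to the library's total count), the level of 3 counts, and such limits cover counting error alone. Each labelled organ held its own markers. The 12 fat body markers, among them yolk protein and lipophorin genes, summed to 69790, 82399 and 80542 CPM in old fat body and 55773 and 55442 CPM in young fat body, while the 11 midgut epithelium markers summed to 35744 and 39019 CPM in old midgut and 50385 and 39010 CPM in young midgut. Libraries of each organ also held marker transcripts of the other organ at a lower level, and these levels differed with age. Fat body markers summed to 2047 and 2182 CPM in old midgut against 6753 and 8161 CPM in young midgut, and the 5 oenocyte markers, which include the decarbonylase gene Cyp4g1, to 56.1 and 60.7 CPM in old midgut against 2270 and 2976 CPM in young midgut. Midgut markers summed to 595, 263 and 412 CPM in old fat body against 197 and 193 CPM in young fat body. In dissected organs, fewer cells of a type and less RNA per cell cannot be told apart. Old fat body replicate 3 lay between replicates 1 and 2 in 1047 of the 1053 genes (99.4%) that differed at least 2-fold between those libraries. Pairs differed by that much in 46 genes in young fat body, 4 in old midgut and 11 in young midgut. Old fat body replicate 3 may therefore not be independent of the other two, which was not tested, and every n = 3 and test counts it as a separate library. Without it 4443 genes differed and 4650 changed in fat body, against 4927 and 5503 with it.

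**Figure D1:**
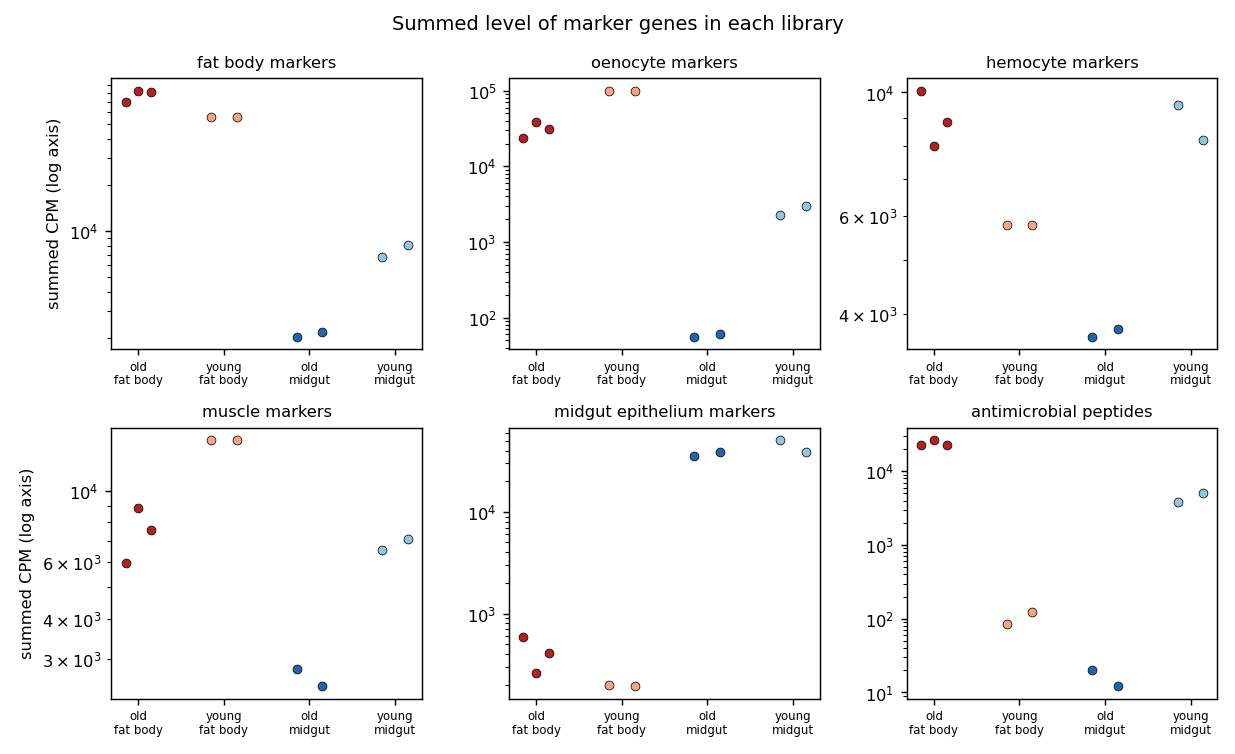
Summed CPM (log axis) of marker genes and of antimicrobial peptide genes in each library, 1 point per library, with old fat body, young fat body, old midgut and young midgut from left to right in each panel. Fat body, oenocyte, hemocyte and muscle markers are all lower in both old midgut libraries than in both young midgut libraries, midgut epithelium markers are higher in the 3 old than in the 2 young fat body libraries, and the antimicrobial peptide sum is 22769, 26229 and 22462 CPM in old fat body against 84.2 and 124 CPM in young fat body and 20 and 12.1 CPM in old midgut against 3824 and 5023 CPM in young midgut.

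The ageing response differed between the organs in 4927 of 11128 genes tested (44.3%), by edgeR's quasi-likelihood test with Benjamini-Hochberg adjusted p below 0.05. The response was higher in fat body in 2652 genes (23.8%) and lower in 2275 (20.4%). At a size of at least 2-fold these were 1876 and 744 genes, and at 16-fold or more 637 and 67. The 95% interval of the difference lay wholly within 2-fold in 4788 genes (43%). In the same fit 5503 genes (49.5%) changed with age in fat body, 2624 higher (23.6%) and 2879 lower (25.9%). In midgut 3731 (33.5%) changed, 1547 higher (13.9%) and 2184 lower (19.6%). This order of the organs rests on the spread shared by all libraries. With 1 fit per organ 4141 genes changed in fat body and 5487 in midgut. With limma-voom weighted per organ the counts were 4372 in fat body and 5455 in midgut. The coefficient of variation was 19.4% in fat body and 6.61% in midgut libraries. Opposite changes that passed in both organs, with the difference passing as well, were seen in 1179 genes: 705 rose in fat body and fell in midgut (6.34%), and 474 fell in fat body and rose in midgut (4.26%). Changes in the same direction passed in both organs in 1023 genes, 306 up and 717 down, and in 228 and 395 of these the difference did not pass.

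Most differing genes passed the test of age in 1 organ and not in the other. A rise in fat body with no passing change in midgut accounted for 1005 of the 2652 higher genes, and a fall in midgut with none in fat body for 555. Among the 2275 lower genes, 1072 fell in fat body with no passing change in midgut, and 481 rose in midgut with none in fat body. Across all genes both responses were nearly unrelated by rank (Spearman's rho -0.03) and weakly inverse by size (Pearson's r -0.17). This is a description across genes, which are not independent replicates and share their library scaling. Among the 7095 genes with at least 5 CPM in an age group of each organ rho was -0.04, and r was more negative, at -0.28. Of these genes 3593 (50.6%) differed.

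The split between higher and lower calls depended on the scaling of the libraries. With TMM factors 53.8% of the differing genes were higher in fat body, and with DESeq2 size factors, which moved the median difference of all genes to 0.15 against 0.02, 64.5% of 4751 were. Leaving out 1 library gave 3878 to 5586 differing genes, the lowest without old midgut replicate 2 and the highest without old fat body replicate 2. Without old midgut replicate 2 the midgut itself had 2293 changed genes and opposite responses numbered 745.

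Genes that young flies hold mainly in 1 organ differed most often. Of the 1404 genes with at least 1 CPM and at least 4 times the level of young midgut in young fat body, 733 (52.2%) fell with age in fat body and 660 (47%) in midgut, and the difference was higher in 485 (34.5%) and lower in 281 (20%). Of the 1062 genes at least 4 times higher in young midgut than in young fat body, 635 (59.8%) rose with age in fat body, 350 (33%) fell in midgut, and the difference was higher in 618 (58.2%) and lower in 72 (6.78%). The remaining 8662 genes were 17.9% higher and 22.2% lower. These classes were cut on the same young libraries that both responses use, so their shares are a description without a test. Fitted without both organ-enriched classes, an alternative chosen after seeing the data, 3379 of 8662 genes differed (1782 higher, 1597 lower), 2433 changed in midgut and 778 moved in opposite directions.

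**Figure D2:**
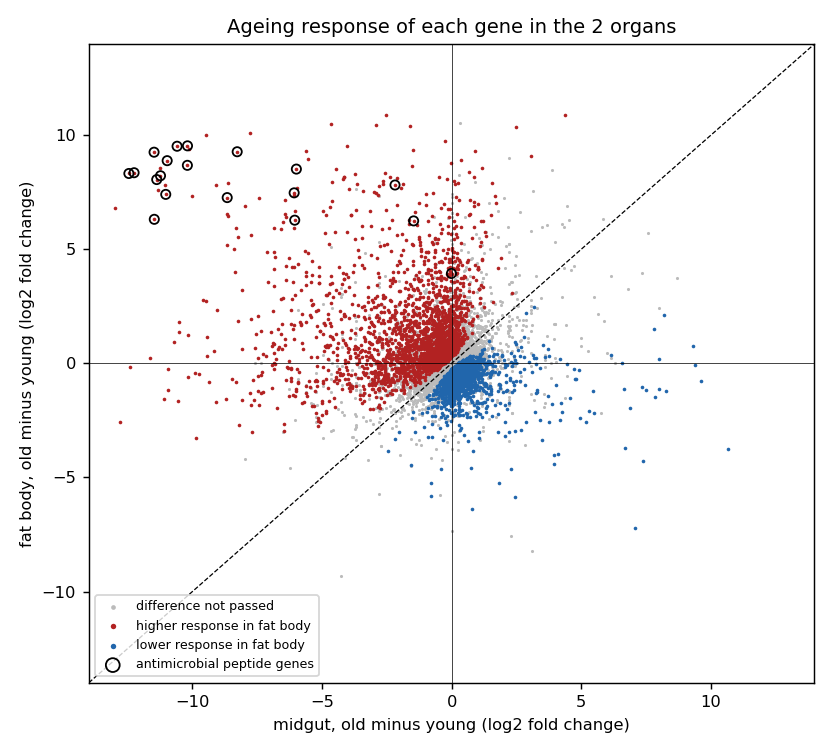
Log2 fold change with age (old minus young) in midgut on the horizontal axis and in fat body on the vertical axis for the 11128 genes tested, 1 point per gene, with the dashed line at equal responses. Red points (2652) had a higher and blue points (2275) a lower response in fat body, grey points did not pass the test of the difference, and the circled antimicrobial peptide genes lie at the upper left, up in fat body and mostly down in midgut.

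Antimicrobial peptide genes were among the largest differences. These small secreted peptides kill bacteria and fungi, and all 19 of 19 genes tested were higher in fat body by the difference (23.8% of all genes were). All 19 rose in fat body (23.6% of all genes) and 15 fell in midgut (19.6% of all genes), 15 of them opposite by all 3 tests. The list's median difference was 18.44 (log2), or 17.79 with the 6 genes that had 3 reads or fewer in a group held at 3 reads, against 0.02 over all genes. Dpt (Diptericin A, chromosome 2R, 14753269 to 14753765, plus strand, in the files' coordinates) had 5703, 4599 and 4743 CPM in old fat body against 9.02 and 10.3 CPM in young fat body, and 1.16 and 0.0639 CPM in old midgut against 767 and 1019 CPM in young midgut. Dpt had a log2 response of 8.89 in fat body and -10.97 in midgut, a difference of 19.86 (SE 1.11, 95% interval 17.42 to 22.30, adjusted p = 7.39e-08). AttA, which encodes an attacin against Gram-negative bacteria, had 1607, 1844 and 1539 CPM in old fat body against 1.05 and 3.71 CPM in young fat body, and 0.187 and 0.0383 CPM in old midgut against 207 and 275 CPM in young midgut. CecA1, a cecropin gene, had 250, 297 and 248 CPM in old fat body against 0.15 and 0.443 CPM in young fat body, and 0.0937 and 0.0255 CPM in old midgut against 61.6 and 83.7 CPM in young midgut. In these 3 genes every old fat body library lay above both young ones, both old midgut libraries lay below both young ones, and the old midgut values rest on 42, 9 and 5 reads over both libraries. The differences were 20.74 (SE 0.97, adjusted p = 1.52e-08) for AttA and 20.11 (SE 0.63, adjusted p = 3.69e-10) for CecA1.

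The same pattern held in Dro, AttB, Mtk and AttD. Dro, the drosocin gene, had 2947, 3591 and 2971 CPM in old fat body against 6.59 and 11.4 CPM in young fat body, and 0.406 and 0 CPM in old midgut against 626 and 797 CPM in young midgut, a difference of 20.78 (SE 1.36, adjusted p = 6.65e-07). Mtk, which encodes the antifungal metchnikowin, had 1069, 1669 and 1310 CPM in old fat body against 4.73 and 4.59 CPM in young fat body, and 0.219 and 0.0255 CPM in old midgut against 187 and 265 CPM in young midgut, a difference of 19.44 (SE 0.75, adjusted p = 3.05e-09). AttD, an attacin without a signal peptide, was at 1247, 331 and 663 CPM in old fat body against 0.569 and 1.47 CPM in young fat body, a range of the old libraries wider than in Dpt or AttA. Its difference was 17.55 (SE 1.0, adjusted p = 2.25e-07). CecB had no read in either old midgut library, against 9.54 and 13.6 CPM in young midgut, so its midgut fall was at least 438-fold, with 3 counts over the group as the floor. Def, the defensin gene, differed by 13.55 (SE 0.42, adjusted p = 2.88e-10). AttA and AttB, and the cecropin genes among themselves, are near-identical copies, so reads may have been split between them. Leaving out 1 library at a time left 18 or 19 of the genes called, and limma-voom called 17.

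Young midgut, not young fat body, held the antimicrobial peptide transcripts among young organs. The summed level was 84.2 and 124 CPM in young fat body and 3824 and 5023 CPM in young midgut, while the old organs stood the other way round, at 22769, 26229 and 22462 CPM in old fat body and 20 and 12.1 CPM in old midgut. Further sets of gut libraries of the series were set beside these as values. Midgut of Lam RNAi flies (5 days) held 17.6 and 17.6 CPM. Old whole gut (40 days) held 75.5 and 79.2 CPM and young whole gut (5 days) 5.1 and 7.14 CPM. Both young midgut libraries thus stood above all other gut libraries in this sum. The same held for oenocyte markers, at 32.2 and 27.2 CPM in Lam RNAi midgut, 54 and 55.9 CPM in old whole gut and 361 and 366 CPM in young whole gut against 2270 and 2976 CPM in young midgut. Fat body markers in young midgut (6753 and 8161 CPM) were also above those in all other gut libraries. They summed to 1797 and 1762 CPM in Lam RNAi midgut and 3952 and 4254 CPM in old whole gut. Young whole gut, at 6141 and 5857 CPM, was the closest. Every fall in midgut is measured against these 2 young libraries, and the part of other tissue in them was not tested. Fat body markers stood at 55773 and 55442 CPM in young fat body and 6753 and 8161 CPM in young midgut. The source of the peptide transcripts in young midgut was not tested. Because 18 of the 19 genes are at least 4 times higher in young midgut than in young fat body, only 1 remained in the fit without organ-enriched genes. It was called higher there as well.

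Receptors and brakes of the IMD pathway followed the peptides. Of 24 genes, by the difference 15 were higher in fat body (62.5%) and 1 lower (4.17%, BG4 -0.62), with a median of 0.95. Over all genes 23.8% were higher and 20.4% lower. In fat body 16 rose and 1 fell, and in midgut 2 rose and 11 fell. The list's sum was 3795 and 3768 CPM in young midgut against 1725 and 1633 CPM in old midgut. It was 1853 and 1842 CPM in Lam RNAi midgut (5 days). Whole gut held 1424 and 1431 CPM when young and 2055 and 2065 CPM when old. Values in brackets after a gene name, here and in later counts, are log2 differences. PGRP-SC2, a secreted amidase that destroys peptidoglycan, had 389, 632 and 486 CPM in old fat body against 1.41 and 1.74 CPM in young fat body, and 270 and 262 CPM in old midgut against 1422 and 1199 CPM in young midgut. PGRP-SC2 had a log2 response of 8.18 in fat body and -2.36 in midgut, a difference of 10.54 (SE 0.38, 95% interval 9.72 to 11.36, adjusted p = 5.93e-10). pirk (chromosome 2R, 17548471 to 17549749, minus strand), an intracellular brake on the pathway, had 107, 67 and 84.5 CPM in old fat body against 2.28 and 2.15 CPM in young fat body, and 23 and 20.3 CPM in old midgut against 135 and 151 CPM in young midgut, a difference of 7.93 (SE 0.24, adjusted p = 1.83e-10). PGRP-SD, a receptor that helps sense bacteria in the blood, differed by 8.48 (SE 0.34, adjusted p = 1.85e-09), and PGRP-SB1, another amidase, by 13.35 (SE 0.62, adjusted p = 1.08e-08). In all 4 genes the old and young libraries of each organ did not overlap, with old above young in fat body and below it in midgut. With 1 library left out, the lower count lay between 0 and 1.

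Toll pathway genes and their secreted targets differed in the same direction. Of 23 genes tested, 16 were higher and 1 lower (tub -0.41) in fat body by the difference (median 1.96), and 14 rose in fat body and fell in midgut. IM3 (BomS3), a short Bomanin peptide gene induced by Toll, had 1342, 1641 and 1537 CPM in old fat body against 174 and 175 CPM in young fat body, and 4.78 and 4.51 CPM in old midgut against 50.3 and 72.1 CPM in young midgut. IM3 had a log2 response of 2.99 in fat body and -3.77 in midgut, a difference of 6.75 (SE 0.22, 95% interval 6.27 to 7.24, adjusted p = 2.88e-10). PGRP-SA, the blood-borne receptor that starts the Toll cascade on Gram-positive bacteria, had 168, 145 and 144 CPM in old fat body against 31.4 and 34.8 CPM in young fat body, and 0.687 and 0.805 CPM in old midgut against 12.3 and 14.4 CPM in young midgut, a difference of 6.24 (SE 0.22, adjusted p = 4e-10). IM14 (Daisho 2), an antifungal peptide gene, differed by 5.89 (SE 0.32, adjusted p = 1.86e-08). Levels of all 3 were apart between ages in both organs, up in fat body and down in midgut. Over the fits that leave out 1 library, the lower count lay between 0 and 2. The lower count was 0 with DESeq2 size factors and 3 with upper quartile factors.

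Thioester proteins, complement-like molecules that bind microbes, split. TepI (Tep1) had 982, 746 and 742 CPM in old fat body against 3.12 and 3.6 CPM in young fat body, and 0.344 and 0.0383 CPM in old midgut against 239 and 329 CPM in young midgut, a difference of 18.86 (SE 0.81, adjusted p = 6.03e-09). TepII (Tep2) and TepIV (Tep4) were higher in fat body as well, by 4.37 and 2.13 (adjusted p = 2.17e-09 and 7.33e-09), and all 3 rose in fat body and fell in midgut. TepIII (Tep3) went the other way: it had 71.4, 66.6 and 68.6 CPM in old fat body against 114 and 113 CPM in young fat body, and 12.3 and 12.3 CPM in old midgut against 10.4 and 13.2 CPM in young midgut, fell in fat body by 0.84 on the log2 scale and did not pass in midgut (0.01). Over the 5 genes, 3 were higher (TepI 18.86, TepII 4.37 and TepIV 2.13) and 2 lower (TepIII -0.86 and Mcr -0.40), and 1 was lower with DESeq2 size factors. The shares were 60% and 40%, against 23.8% and 20.4% of all genes. The list's sum was 565 and 706 CPM in young midgut against 126 and 117 CPM in old midgut. It was 137 and 136 CPM in Lam RNAi midgut (5 days). Whole gut held 155 and 163 CPM when young and 372 and 406 CPM when old.

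Turandot genes, which encode secreted stress peptides, and JAK-STAT genes were higher or did not pass. By the difference, 8 of 14 genes were higher in fat body (57.1%) and 0 lower (median 2.06, 2.22 with genes of 3 reads or fewer held at 3). Over all genes 23.8% were higher and 20.4% lower. The list's sum was 1030 and 1299 CPM in young midgut against 446 and 412 CPM in old midgut. It was 473 and 476 CPM in Lam RNAi midgut (5 days). Whole gut held 344 and 366 CPM when young and 706 and 732 CPM when old. TotA had 3943, 1450 and 2547 CPM in old fat body against 183 and 194 CPM in young fat body, and 4.9 and 3.81 CPM in old midgut against 292 and 400 CPM in young midgut. TotA had a log2 response of 3.67 in fat body and -6.37 in midgut, a difference of 10.04 (SE 0.65, 95% interval 8.62 to 11.46, adjusted p = 1.72e-07). TotM had 1724, 387 and 966 CPM in old fat body against 7.04 and 8.3 CPM in young fat body, and 0.874 and 0.498 CPM in old midgut against 133 and 176 CPM in young midgut, a difference of 14.87 (SE 0.89, adjusted p = 1.31e-07). Old fat body replicate 2 was the lowest of the old libraries in both genes, and even so lay above both young ones. TotX and TotC differed by 9.19 and 7.68 (adjusted p = 6.91e-10 and 6.42e-08).

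**Figure D3:**
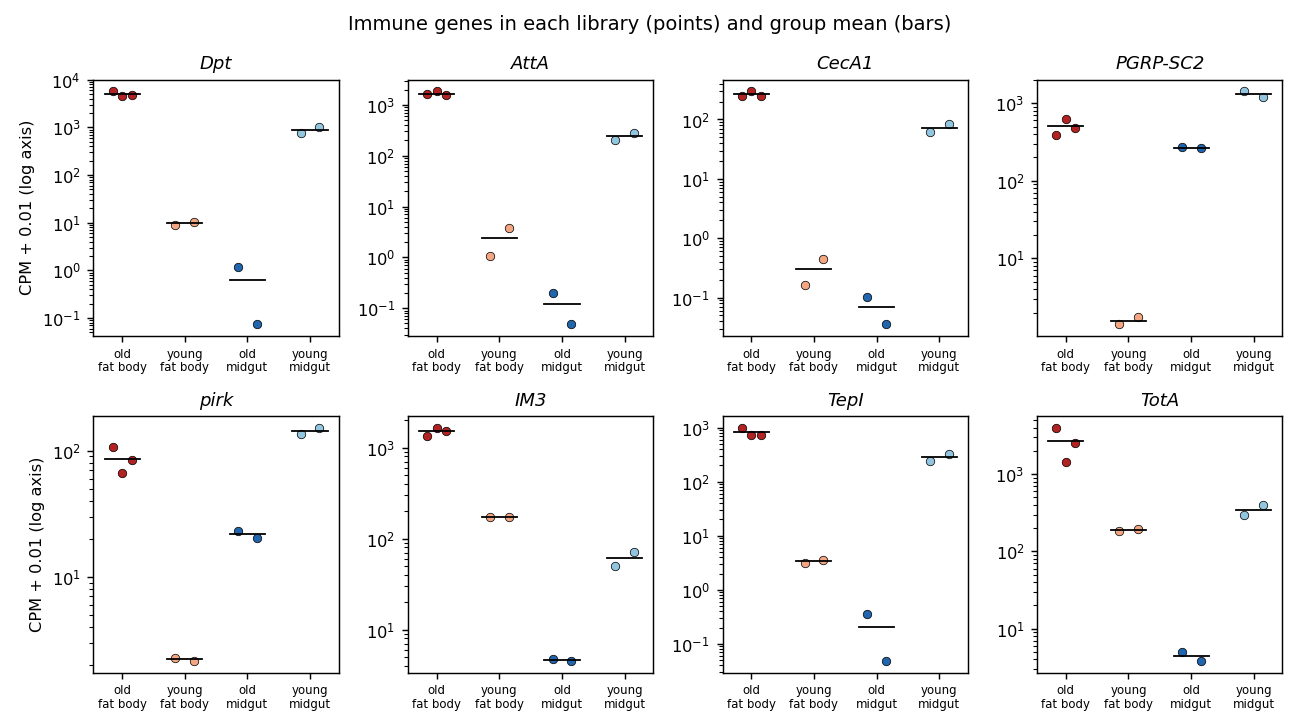
CPM (log axis, 0.01 added) of 8 immune genes in each library, 1 point per library with the group mean as a bar, for old fat body, young fat body, old midgut and young midgut from left to right. In all 8 panels the old fat body points lie above the young ones and the old midgut points lie below the young ones, for example 107, 67 and 84.5 against 2.28 and 2.15 CPM and 23 and 20.3 against 135 and 151 CPM for pirk.

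Secreted products of the fat body made up a further block. Among 20 yolk, storage and carrier protein genes, by the difference 14 were higher in fat body (70%) and 1 lower (5%, Lsp1gamma -5.61), with a median of 2.87. Over all genes 23.8% were higher and 20.4% lower. Tsf1, the iron carrier transferrin of the blood, had 5144, 11270 and 8447 CPM in old fat body against 841 and 856 CPM in young fat body, and 47.6 and 40.6 CPM in old midgut against 639 and 821 CPM in young midgut. Tsf1 had a log2 response of 3.17 in fat body and -4.10 in midgut, a difference of 7.27 (SE 0.42, 95% interval 6.36 to 8.19, adjusted p = 3.59e-08). fit, a satiety hormone gene of the fat body that responds to feeding, had 312, 512 and 478 CPM in old fat body against 8.66 and 8.32 CPM in young fat body, and 11.1 and 10.8 CPM in old midgut against 21.8 and 28.4 CPM in young midgut, a difference of 6.80 (SE 0.32, adjusted p = 4.89e-09). Yp1, a yolk protein gene, had 22290, 23187 and 24282 CPM in old fat body against 16010 and 16304 CPM in young fat body, and 425 and 477 CPM in old midgut against 2113 and 2607 CPM in young midgut. Rfabg (apolpp), the lipophorin apoprotein that carries lipids in blood, differed by 3.52 (SE 0.19, adjusted p = 1.55e-08). All 4 genes were above their young level in every old fat body library and below it in both old midgut libraries. For Yp1 the log2 response was 0.40 in fat body and -2.43 in midgut, a difference of 2.83 (SE 0.17, adjusted p = 3.36e-08). The midgut fall of these genes stood beside a fall of 9 of 12 fat body markers (1 rose) in midgut. Tsf1, Yp1 and Rfabg are themselves among these markers, so the marker count is no separate evidence. The part of fat body cells or their RNA was not tested. When single libraries were dropped, the lower count lay between 0 and 2.

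Genes of oenocytes, the hydrocarbon-producing cells of the abdominal wall that are dissected with the fat body, fell in both organs and fell further in midgut. Of 10 hydrocarbon synthesis genes, 6 were higher (60%) and 2 lower (20%, Cpr -1.90 and CG1444 -0.92) by the difference. The shares of all genes were 23.8% and 20.4%. In fat body 0 rose and 8 fell with age (median -1.82), and in midgut 0 rose and 7 fell (median -5.15). Cyp4g1, the decarbonylase of the last step, had 22501, 35009 and 29384 CPM in old fat body against 89554 and 90668 CPM in young fat body, and 43 and 46.5 CPM in old midgut against 2076 and 2717 CPM in young midgut, a difference of 4.03 (SE 0.26, adjusted p = 8.4e-08). CG18609 and CG9458 differed by 7.13 and 3.48 (adjusted p = 2.8e-05 and 0.000115). Cpr, the P450 reductase that serves all organs, had 1721, 2208 and 1918 CPM in old fat body against 6617 and 6590 CPM in young fat body, and 628 and 635 CPM in old midgut against 543 and 666 CPM in young midgut. It fell in fat body alone, a difference of -1.90 (SE 0.16, adjusted p = 1.05e-06). The 5 oenocyte markers, which include Cyp4g1 and CG18609 themselves, summed to 56.1 and 60.7 CPM in old midgut against 2270 and 2976 CPM in young midgut.

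Matrix and cuticle genes were lower in old midgut and mixed in old fat body. All 11 basement membrane genes fell in midgut, while 3 rose and 5 fell in fat body. By the difference 7 were higher (63.6%) and 0 lower, against 23.8% and 20.4% of all genes. vkg, a collagen IV chain, had 809, 678 and 710 CPM in old fat body against 1109 and 1048 CPM in young fat body, and 15.6 and 13.2 CPM in old midgut against 61.9 and 76 CPM in young midgut, a difference of 1.63 (SE 0.13, adjusted p = 5.88e-07). Ndg (nidogen) and trol (perlecan) rose in fat body and fell in midgut, with differences of 1.54 and 2.04 (adjusted p = 4.46e-07 and 8.18e-05). In the leave-one-out fits the lower count lay between 0 and 1. Of 28 chitin and cuticle genes, 23 were higher (82.1%) and 0 lower (median 2.66), and 21 fell in midgut. Cpr92F, a cuticle protein gene, had 200, 155 and 173 CPM in old fat body against 44.3 and 47.5 CPM in young fat body, and 0 and 0.0511 CPM in old midgut against 49.6 and 61.8 CPM in young midgut, a difference of 12.34 (SE 0.36, adjusted p = 3.49e-10). Idgf3 and Idgf1, chitinase-like growth factors, differed by 3.12 and 2.73 (adjusted p = 3.2e-08 and 3.52e-08). Hemocytes also make basement membrane, and the 17 hemocyte markers summed to 10073, 8020 and 8854 CPM in old fat body against 5787 and 5775 CPM in young fat body, and to 3638 and 3751 CPM in old midgut against 9488 and 8216 CPM in young midgut. In fat body 3 of these markers rose and 5 fell (median -0.39), so most did not follow the sum. In midgut 0 rose and 13 fell. The part of hemocytes in these differences was not tested.

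Fat storage and lipolysis genes fell more often than they rose in both organs. In fat body 5 rose and 10 fell with age (median -0.25), and in midgut 1 rose and 14 fell (median -0.49). By the difference, of 22 genes 8 were higher and 4 lower (Acsl -1.59, SCAP -1.0, Lsd-1 -0.61 and Fatp -0.54). These are 36.4% and 18.2%, against 23.8% and 20.4% of all genes. Lip4, a lipase gene, had 242, 172 and 199 CPM in old fat body against 77.7 and 80.1 CPM in young fat body, and 9.65 and 7.98 CPM in old midgut against 18.8 and 21.6 CPM in young midgut, a difference of 2.50 (SE 0.16, adjusted p = 5.11e-08). Acsl, which activates long-chain fatty acids, had 1091, 1267 and 1220 CPM in old fat body against 4076 and 4004 CPM in young fat body, and 825 and 812 CPM in old midgut against 921 and 1012 CPM in young midgut, and fell in both organs, more in fat body (difference -1.59, SE 0.13, adjusted p = 4.95e-07). SCAP, the escort of the lipid-synthesis factor SREBP, fell in fat body by 1.11 on the log2 scale and did not pass in midgut (-0.11), a difference of -1.0 (SE 0.10, adjusted p = 6.53e-06).

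Digestive enzymes of the midgut changed gene by gene. Of 31 trypsin-like protease genes, 4 rose and 10 fell in midgut. By the difference 13 were higher and 6 lower (median 1.90, 1.11 with the 8 genes near the floor held at 3 reads). The shares were 41.9% and 19.4%, against 23.8% and 20.4% of all genes. Jon74E (chromosome 3L, 17539967 to 17542227, minus strand), a Jonah-family serine protease, had 1.4, 2.44 and 1.97 CPM in old fat body against 3.65 and 3.62 CPM in young fat body, and 1833 and 2024 CPM in old midgut against 9.81 and 13 CPM in young midgut. Jon74E had a log2 response of -1.04 in fat body and 7.36 in midgut, a difference of -8.40 (SE 0.30, 95% interval -9.03 to -7.76, adjusted p = 4e-10). Jon99Ciii and Jon99Cii, a near-identical pair, also rose in midgut. Jon99Ciii was at 3433 and 4020 CPM in old midgut against 790 and 562 CPM in young midgut and under 1 CPM in every fat body library, with a midgut response of 2.40 (adjusted p = 1.32e-06). Jon66Ci and Jon66Cii fell in midgut by 5.10 and 8.35 on the log2 scale, with Jon66Cii at 0.375 and 0.447 CPM in old midgut against 140 and 129 CPM in young midgut.

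Several midgut products were also detected at a low level in fat body, and there they were higher in old than in young libraries. betaTry, a trypsin gene, had 23.4, 19.4 and 21 CPM in old fat body against 4.61 and 5.25 CPM in young fat body, and 6991 and 6989 CPM in old midgut against 13423 and 10572 CPM in young midgut, a difference of 2.82 (SE 0.25, adjusted p = 1.28e-06). Jon65Aiii had 90.5, 13.6 and 49.6 CPM in old fat body against 4.91 and 5.04 CPM in young fat body, and 8732 and 10479 CPM in old midgut against 10650 and 8444 CPM in young midgut, with old fat body replicate 1 highest and replicate 2 lowest. thetaTry was at 1.71, 1.14 and 1.61 CPM in old fat body against 0.03 and 0 CPM in young fat body. Npc1b, the sterol uptake protein of the midgut, had 16.1, 4.4 and 9.39 CPM in old fat body against 0.599 and 1.21 CPM in young fat body, and 232 and 249 CPM in old midgut against 843 and 648 CPM in young midgut, a difference of 4.95 (SE 0.65, adjusted p = 8.18e-05). Peritrophin-15a, a chitin-binding protein of the peritrophic matrix, had 11.7, 9.21 and 11.4 CPM in old fat body against 0.0899 and 0.0709 CPM in young fat body, and 217 and 217 CPM in old midgut against 433 and 385 CPM in young midgut. Peritrophin-15a had a log2 response of 6.92 in fat body and -0.97 in midgut, a difference of 7.90 (SE 0.32, 95% interval 7.20 to 8.59, adjusted p = 1.45e-09). These genes are far more abundant in the midgut libraries. Of the 11 midgut epithelium markers, which include betaTry, Jon65Aiii and Npc1b themselves, 8 rose in fat body and 1 fell. How much of these fat body responses is RNA of gut cells was not tested. Among 17 peritrophic matrix and mucin genes 13 were higher (76.5%) and 1 lower (5.88%, Mur2B -1.43) by the difference. The shares of all genes were 23.8% and 20.4%. Dropping 1 library at a time, the higher count was 8 without young fat body replicate 2. Muc96D, a mucin gene, was at 42.8, 37 and 50.7 CPM in old fat body against 0.33 and 0.0709 CPM in young fat body and under 1 CPM in every midgut library.

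Carbohydrate enzymes fell in midgut more often than they rose. Of 17, 1 rose and 11 fell in midgut, and 8 rose and 4 fell in fat body. By the difference 12 were higher (70.6%) and 1 lower (5.88%, CG6206 -0.50). tobi, an alpha-glucosidase gene regulated by diet and insulin, was the midgut gene that rose, with 810, 651 and 740 CPM in old fat body against 0.599 and 2.78 CPM in young fat body, and 4135 and 3012 CPM in old midgut against 1611 and 1387 CPM in young midgut. Its rise was larger in fat body, 8.55 in fat body and 1.19 in midgut (difference 7.36, SE 0.66, adjusted p = 2.92e-06). Amy-d, an amylase gene, had 34.2, 32.2 and 27.6 CPM in old fat body against 15 and 14.9 CPM in young fat body, and 1453 and 1573 CPM in old midgut against 3529 and 2580 CPM in young midgut, a difference of 2.02 (SE 0.23, adjusted p = 1.43e-05). CG9468 (LManVI), a lysosomal mannosidase family gene, fell in midgut (5355 and 5432 CPM in old midgut against 13194 and 13215 CPM in young midgut) and did not pass in fat body (-0.06). With 1 library left out, the lower count lay between 0 and 1. Of 11 sterol and lipid uptake genes 7 were higher (63.6%) and 1 lower (9.09%, Npc2d -4.22 with a group held at 3 reads). Npc2a, which moves sterols out of lysosomes, had 80.4, 73 and 67 CPM in old fat body against 36.2 and 35.8 CPM in young fat body, and 34.6 and 31 CPM in old midgut against 58.9 and 61.2 CPM in young midgut, a difference of 1.83 (SE 0.13, adjusted p = 1.99e-07). Npc2g and Npc2h fell in both organs, further in midgut. Over the fits that leave out 1 library, the lower count lay between 0 and 2. Of 7 digestive lysozymes, 4 fell and 1 rose in fat body (LysX, 5.96), and 5 fell and 0 rose in midgut. LysB had 0.216, 0.132 and 0.133 CPM in old fat body against 1.32 and 1.15 CPM in young fat body, and 652 and 771 CPM in old midgut against 3309 and 2318 CPM in young midgut. By the difference 1 was higher (LysP 2.75) and 1 lower (LysB -0.97), and with 1 library left out these counts were 0 to 1 higher and 0 to 1 lower. Each is 14.3% of the list, below the 23.8% and 20.4% of all genes.

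Detoxification enzymes differed strongly and not as 1 block. Glutathione transferases, which conjugate toxins and lipid peroxides, were mostly higher in fat body: of 35 genes 22 were higher and 2 lower (CG11784 -1.19 and CG9362 -0.63), with a median of 1.89, 21 rose and 5 fell in fat body, and 6 rose and 15 fell in midgut. Over all genes 23.8% were higher and 20.4% lower by the difference. Their summed level was 3854, 2248 and 2939 CPM in old fat body against 1488 and 1497 CPM in young fat body, and midgut epithelium markers in the same libraries summed to 595, 263 and 412 CPM in old fat body against 197 and 193 CPM in young fat body. Both sums were highest in old replicate 1 and, among old libraries, lowest in replicate 2, and the part of midgut transcripts in the rise was not tested. GstD9 had 59.3, 26.4 and 43 CPM in old fat body against 13.7 and 13.8 CPM in young fat body, and 30.2 and 31.1 CPM in old midgut against 324 and 360 CPM in young midgut. GstD9 had a log2 response of 1.51 in fat body and -3.53 in midgut, a difference of 5.04 (SE 0.33, 95% interval 4.32 to 5.76, adjusted p = 1.18e-07). GstD3 and CG5224 (GstE11) had the same opposite pattern, with differences of 3.35 and 4.27 (adjusted p = 2.72e-07 and 3.13e-07). GstE7 rose in both organs, 3.11 in fat body and 0.83 in midgut (difference 2.28, SE 0.23, adjusted p = 4.04e-06). In the fit without organ-enriched genes 7 of 17 remaining genes were higher and 2 lower.

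Cytochrome P450 genes, which oxidise toxins, hormones and fatty acids, went both ways. Of 68, 24 were higher and 16 lower in fat body by the difference, 10 rose in fat body and fell in midgut, and 7 did the opposite. By the difference 35.3% were higher and 23.5% lower, against 23.8% and 20.4% of all genes. Cyp6w1 had 491, 519 and 496 CPM in old fat body against 107 and 112 CPM in young fat body, and 6.21 and 4.7 CPM in old midgut against 76.5 and 105 CPM in young midgut. Cyp6w1 had a log2 response of 2.07 in fat body and -4.12 in midgut, a difference of 6.19 (SE 0.25, 95% interval 5.65 to 6.73, adjusted p = 1.44e-09). Cyp28d1 shared its pattern (difference 3.40, SE 0.17, adjusted p = 7.41e-09). Cyp4p2 (chromosome 2R, 5125034 to 5127338, plus strand), in contrast, had 21.6, 13.9 and 20.3 CPM in old fat body against 241 and 245 CPM in young fat body, and 136 and 137 CPM in old midgut against 73.6 and 73.5 CPM in young midgut. Cyp4p2 had a log2 response of -3.84 in fat body and 0.84 in midgut, a difference of -4.67 (SE 0.22, 95% interval -5.14 to -4.20, adjusted p = 4.48e-09). Cyp6a2, a gene linked to insecticide resistance, had 19.8, 36.4 and 27.6 CPM in old fat body against 112 and 113 CPM in young fat body, and 128 and 127 CPM in old midgut against 44 and 54.5 CPM in young midgut, a difference of -3.46 (SE 0.28, adjusted p = 7.61e-07). Cyp6t1 and Cyp4e1 fell in fat body and rose in midgut as well, with differences of -2.79 and -2.71 (adjusted p = 4.68e-09 and 2.71e-08). Cyp4p2, Cyp6a2, Cyp28d1 and Cyp4e1 share positions with another gene in the files, so their counts are less certain. Without organ-enriched genes 7 of 41 P450 genes were higher and 12 lower, so the balance between both directions turned. Of 18 UDP-glycosyltransferase genes 7 were higher (38.9%) and 2 lower (11.1%; Ugt37b1 -2.66 and Ugt86Dc -0.96). When single libraries were dropped, the higher count was 4 without old midgut replicate 2.

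Redox genes differed about as often as all genes. Of 19 antioxidant and cnc-Keap1 genes 5 were higher (MtnD 5.55, MtnB 3.78, MtnA 1.34, Keap1 1.09 and MTF-1 0.49) and 4 lower (Sod -1.0, Prx5/CG7215 -1.0, Prx5037 -0.96 and Sod2 -0.50). These are 26.3% and 21.1%, against 23.8% and 20.4% of all genes. The sign of their median (0.05) turned with upper quartile scaling. MtnD, a metallothionein gene, had 14, 9.06 and 10.6 CPM in old fat body against 0.389 and 0.497 CPM in young fat body, and 102 and 103 CPM in old midgut against 198 and 216 CPM in young midgut. MtnD had a log2 response of 4.49 in fat body and -1.06 in midgut, a difference of 5.55 (SE 0.25, 95% interval 5.01 to 6.09, adjusted p = 3.34e-09). MtnA differed in the same direction (difference 1.34, SE 0.15, adjusted p = 1.15e-05), and so did Keap1, which holds the antioxidant factor cnc in check (difference 1.09, SE 0.13, adjusted p = 1.6e-05). Sod, the cytosolic superoxide dismutase, had 553, 574 and 526 CPM in old fat body against 1045 and 1049 CPM in young fat body, and 403 and 409 CPM in old midgut against 397 and 414 CPM in young midgut, fell in fat body alone and differed by -1.0 (SE 0.11, adjusted p = 1.1e-05). Among 9 genes of gut oxidant defence 4 were higher (PGRP-SC1a 6.48 with a group held at 3 reads, Prx2540-1 3.64, Irc 2.57 and Prx2540-2 0.75) and 1 lower (Eip71CD -3.03). Their shares were 44.4% higher and 11.1% lower. Irc, an immune-regulated catalase, had 1492, 1272 and 1363 CPM in old fat body against 1356 and 1351 CPM in young fat body, and 20.3 and 16.6 CPM in old midgut against 96 and 131 CPM in young midgut, a difference of 2.57 (SE 0.17, adjusted p = 7.39e-08). In fat body it did not pass (-0.10). Eip71CD (MsrA), which repairs oxidised methionine, had 19.8, 21.6 and 19.6 CPM in old fat body against 22.8 and 21.2 CPM in young fat body, and 448 and 496 CPM in old midgut against 65.5 and 65.5 CPM in young midgut. Eip71CD had a log2 response of -0.23 in fat body and 2.79 in midgut, a difference of -3.03 (SE 0.19, 95% interval -3.44 to -2.61, adjusted p = 5.8e-08). In the leave-one-out fits the lower count lay between 1 and 2.

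Mitochondrial respiration genes fell in fat body, and none fell in midgut. Of 32 oxidative phosphorylation genes 29 fell and 0 rose in fat body (median -0.54), 3 rose and 0 fell in midgut (median -0.01), and 20 were lower and 0 higher by the difference (median -0.51; 20.4% of all genes were lower). Their summed level was 5970, 8456 and 7166 CPM in old fat body against 9793 and 9908 CPM in young fat body, and 12814 and 13009 CPM in old midgut against 12084 and 13959 CPM in young midgut. Muscle markers moved with this sum in fat body, at 5961, 8869 and 7574 CPM in old fat body against 14364 and 14370 CPM in young fat body (16 of 20 fell). Among old libraries replicate 1 was lowest and replicate 2 highest in both sums. Muscle markers fell in midgut as well (2782 and 2460 CPM in old midgut against 6522 and 7075 CPM in young midgut, 19 of 20). Their part in the fat body result was not tested. CG12400 (ND-B14.5B), a complex I subunit gene, had 57.7, 58 and 57.2 CPM in old fat body against 65.9 and 65.9 CPM in young fat body, and 98.7 and 95.4 CPM in old midgut against 71.4 and 82.4 CPM in young midgut. CG12400 had a log2 response of -0.32 in fat body and 0.28 in midgut, a difference of -0.60 (SE 0.09, 95% interval -0.79 to -0.41, adjusted p = 0.000111). CG8680 (ND-13A) and CG3214 (ND-B17.2), also of complex I, differed by -0.78 and -0.58 (adjusted p = 0.000804 and 0.000902). Sizes were small throughout, and the count moved with single libraries while its direction did not. Dropping 1 library at a time, the lower count was 9 without old midgut replicate 2, and 10 without young midgut replicate 1, and 12 without young fat body replicate 1 or 2, and 32 without old fat body replicate 2. With DESeq2 size factors 10 were lower, and in the fit of the 9 libraries alone 9.

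Ribosomal protein genes were lower in fat body by the difference in more than the share of all genes, by small amounts. Most did not pass within either organ. Of 69 cytoplasmic ribosomal protein genes 40 were lower and 0 higher in fat body by the difference (median -0.37; 20.4% of all genes were lower). In fat body 1 rose and 25 fell with age (median -0.19), and in midgut 22 rose and 0 fell (median 0.21). In fat body 43 did not pass and in midgut 47, and 13 were opposite by all 3 tests. RpS3A, of the small subunit, had 2798, 2792 and 2856 CPM in old fat body against 3536 and 3660 CPM in young fat body, and 2020 and 1902 CPM in old midgut against 1306 and 1565 CPM in young midgut. RpS3A had a log2 response of -0.48 in fat body and 0.40 in midgut, a difference of -0.88 (SE 0.11, 95% interval -1.12 to -0.63, adjusted p = 4.22e-05). RpL23, of the large subunit, differed by -0.80 (SE 0.12, adjusted p = 0.000115), and RpLP1, of the stalk, by -0.72 (SE 0.12, adjusted p = 0.000283). The lower count was 23 with DESeq2 size factors (1 higher) and 19 in the fit of the 9 libraries alone. Ribosome biogenesis genes, which act in the nucleolus, rose in midgut (14 of 24, median 0.56) while in fat body 1 rose and 1 fell (median 0.04). By the difference 7 were lower (0 higher), or 29.2%, against 20.4% of all genes. Nop60B, the dyskerin pseudouridine synthase, had 57, 95 and 82.7 CPM in old fat body against 83.4 and 80.7 CPM in young fat body, and 76.4 and 70.5 CPM in old midgut against 34.7 and 41.2 CPM in young midgut, a difference of -1.09 (SE 0.25, adjusted p = 0.00392). With 1 library left out, the lower count was 3 without young fat body replicate 2, and 4 without young midgut replicate 2 or old midgut replicate 1, and 17 without old fat body replicate 2. With DESeq2 size factors 4 were lower.

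The vacuolar proton pump, which acidifies lysosomes and, in the copper cells, the gut lumen, was higher in fat body. Of 20 genes on the list, which includes the copper cell factor lab, 14 were higher and 2 lower (lab -1.06 and VhaM9.7-1 -0.53) by the difference (median 0.77). The shares were 70% and 10%, against 23.8% and 20.4% of all genes. In fat body 13 rose and 3 fell with age (median 0.51), and in midgut 0 rose and 5 fell (median -0.24). Vha36 had 117, 135 and 117 CPM in old fat body against 56.6 and 60.1 CPM in young fat body, and 605 and 600 CPM in old midgut against 630 and 654 CPM in young midgut. Vha36 had a log2 response of 0.95 in fat body and -0.15 in midgut, a difference of 1.10 (SE 0.13, 95% interval 0.81 to 1.38, adjusted p = 2.36e-05). VhaM9.7-2 differed by 0.92 (SE 0.11, adjusted p = 1.46e-05). Over the fits that leave out 1 library, the lower count lay between 1 and 2. Proteasome genes rose in fat body (18 of 30, median 0.31) and passed in midgut in 2 (median 0.09), yet the difference itself passed in 5 alone. All 5 were higher, a share of 16.7%, below the 23.8% of all genes. Rpt4, an ATPase of the proteasome base, had 144, 118 and 122 CPM in old fat body against 88.1 and 83.3 CPM in young fat body, and 92 and 95.5 CPM in old midgut against 80.6 and 89.4 CPM in young midgut, a difference of 0.36 (SE 0.12, adjusted p = 0.0308). The difference of Rpt4 no longer passed without young fat body replicate 1 or 2, or without young midgut replicate 1 or 2, or without old midgut replicate 1. When single libraries were dropped, the higher count was 0 without young fat body replicate 1 or young midgut replicate 2 or old midgut replicate 1, and 1 without young fat body replicate 2 or young midgut replicate 1, and 3 without old midgut replicate 2, and 11 without old fat body replicate 2. It was 0 with upper quartile factors and 8 with DESeq2 size factors, so a difference of the proteasome between organs rests on these choices.

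**Figure D4:**
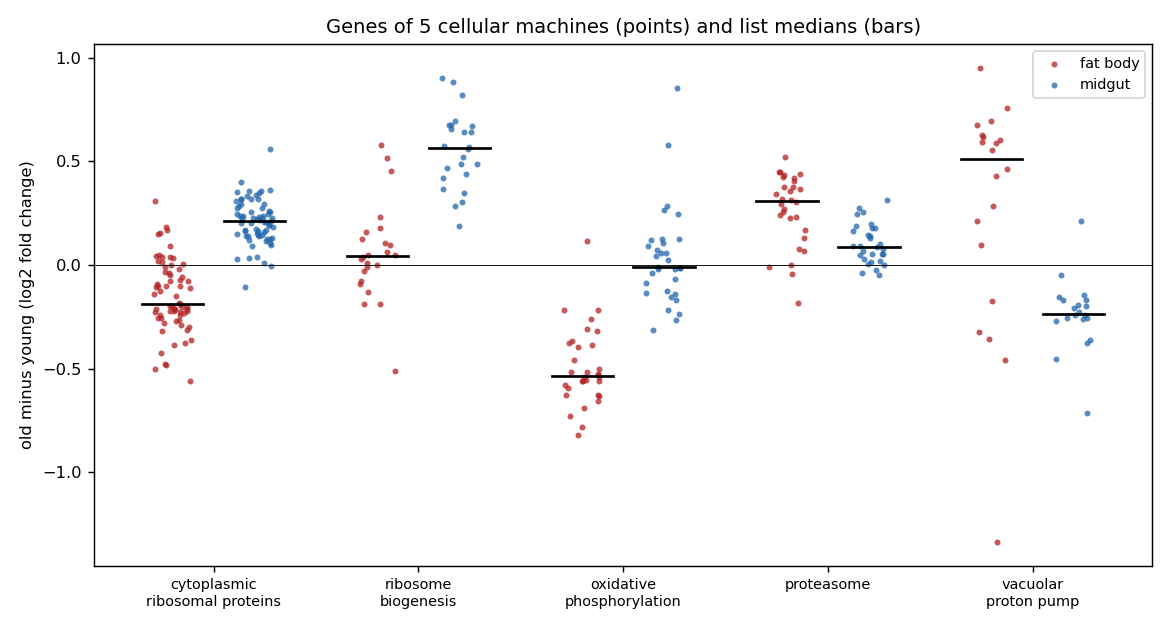
Log2 fold change with age (old minus young) of each gene of 5 cellular machines, 1 point per gene with the list median as a bar, fat body in red beside midgut in blue. The medians in fat body and midgut are -0.19 and 0.21 for ribosomal proteins, 0.04 and 0.56 for ribosome biogenesis, -0.54 and -0.01 for oxidative phosphorylation, 0.31 and 0.09 for the proteasome, and 0.51 and -0.24 for the vacuolar proton pump.

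Chaperones did not move together. Of 18 heat shock and cytosolic chaperone genes 7 were higher and 6 lower (38.9% and 33.3%, against 23.8% and 20.4% of all genes). Hsp83, the Hsp90 chaperone, had 1147, 692 and 905 CPM in old fat body against 1946 and 1879 CPM in young fat body, and 1248 and 1183 CPM in old midgut against 701 and 672 CPM in young midgut. Hsp83 had a log2 response of -1.20 in fat body and 0.77 in midgut, a difference of -1.96 (SE 0.20, 95% interval -2.41 to -1.52, adjusted p = 6.17e-06). Hsp22, a mitochondrial small heat shock protein gene, had 438, 234 and 323 CPM in old fat body against 157 and 159 CPM in young fat body, and 40.2 and 35.5 CPM in old midgut against 88.8 and 75.9 CPM in young midgut, a difference of 2.12 (SE 0.27, adjusted p = 3.45e-05) in the other direction. l(2)efl, another small heat shock gene, fell in midgut alone (58.1 and 54.3 CPM in old midgut against 141 and 140 CPM in young midgut) and differed by 1.41 (SE 0.14, adjusted p = 3.6e-06). Of 20 endoplasmic reticulum genes 6 were higher and 3 lower (Hsc70-3 -2.14, prtp -1.32 and Crc -0.82), which are 30% and 15%. Hsc70-3, the BiP chaperone of that compartment, had 818, 789 and 789 CPM in old fat body against 3603 and 3690 CPM in young fat body, and 1188 and 1260 CPM in old midgut against 1213 and 1462 CPM in young midgut. Hsc70-3 had a log2 response of -2.32 in fat body and -0.18 in midgut, a difference of -2.14 (SE 0.12, 95% interval -2.41 to -1.87, adjusted p = 2.6e-08). prtp, a disulfide isomerase, fell in fat body and rose in midgut (difference -1.32, SE 0.12, adjusted p = 1.86e-06), and Sec61beta of the translocon did the opposite (difference 1.30, SE 0.12, adjusted p = 2e-06). In the leave-one-out fits the lower count was 5 without old fat body replicate 1.

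Sugar and nutrient genes differed singly. Of 22 genes of sugar metabolism 7 were higher and 6 lower (31.8% and 27.3%, near the 23.8% and 20.4% of all genes). ImpL3 (Ldh, lactate dehydrogenase) had 99, 143 and 123 CPM in old fat body against 16.3 and 14.3 CPM in young fat body, and 134 and 122 CPM in old midgut against 147 and 152 CPM in young midgut. ImpL3 had a log2 response of 2.88 in fat body and -0.28 in midgut, a difference of 3.15 (SE 0.21, 95% interval 2.70 to 3.60, adjusted p = 8.77e-08). Tps1, which makes the blood sugar trehalose, fell in both organs and further in midgut (difference 1.41, SE 0.15, adjusted p = 7.51e-06), and Treh, which splits trehalose, fell in midgut and did not pass in fat body (difference 1.35, SE 0.19, adjusted p = 6.63e-05). Of 13 TCA cycle genes 1 was higher (skap 0.35) and 1 lower (Idh -0.48), 7.69% each and below the shares of all genes. Dropping 1 library at a time, the higher count lay between 0 and 2, and the lower count lay between 1 and 4. Of 20 insulin and nutrient genes 3 were higher (15%, Ilp6 3.41, Thor 1.31 and Pi3K92E 0.83) and 7 lower (35%), and 4 fell in fat body and rose in midgut. ImpL2, a secreted binder that restrains insulin-like peptides, averaged 299 ± 31.6 CPM in old fat body (SD, n = 3) against 529 ± 18.4 CPM in young fat body (SD, n = 2), and had 33.5 and 32.4 CPM in old midgut against 19.8 and 20.3 CPM in young midgut. ImpL2 had a log2 response of -0.95 in fat body and 0.66 in midgut, a difference of -1.61 (SE 0.15, 95% interval -1.94 to -1.29, adjusted p = 2.03e-06). Ilp6, the insulin-like peptide of the fat body, had 102, 47.2 and 75.4 CPM in old fat body against 38.4 and 35.2 CPM in young fat body, and 0.562 and 0.575 CPM in old midgut against 2.69 and 3.7 CPM in young midgut, the opposite pattern (difference 3.41, SE 0.45, adjusted p = 5.91e-05). daw, an activin ligand, fell in fat body (74.4, 82.9 and 80.3 CPM in old fat body against 183 and 181 CPM in young fat body), and CG11299 (Sesn, a TORC1 inhibitor) rose in midgut (272 and 299 CPM in old midgut against 103 and 116 CPM in young midgut). Their differences were -1.36 and -1.56 (adjusted p = 3.14e-05 and 2.61e-06). With 1 library left out, the higher count was 5 without old fat body replicate 2.

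Growth and stress signalling was higher in fat body or did not pass. Of 9 EGFR ligand and feedback genes 6 were higher (66.7%) and 0 lower by the difference (median 0.68). Over all genes 23.8% were higher and 20.4% lower. sty (sprouty), a feedback inhibitor of receptor tyrosine kinases, had 56.1, 58.1 and 60.9 CPM in old fat body against 56.7 and 60.1 CPM in young fat body, and 24.4 and 21.4 CPM in old midgut against 58.7 and 75.7 CPM in young midgut, a difference of 1.48 (SE 0.12, adjusted p = 8.1e-07). Egfr itself had 207, 201 and 206 CPM in old fat body against 138 and 138 CPM in young fat body, and 30.3 and 27.3 CPM in old midgut against 34.8 and 38.8 CPM in young midgut, a difference of 0.85 (SE 0.09, adjusted p = 8.41e-06). Of 12 JNK stress pathway genes 7 were higher (58.3%) and 0 lower. Gadd45, a stress gene induced by damage, had 82.7, 63.7 and 71.7 CPM in old fat body against 13 and 13.1 CPM in young fat body, and 9.77 and 8.1 CPM in old midgut against 23.1 and 24.7 CPM in young midgut. Gadd45 had a log2 response of 2.35 in fat body and -1.48 in midgut, a difference of 3.83 (SE 0.19, 95% interval 3.43 to 4.24, adjusted p = 6.03e-09). Jra (the Jun factor) rose in fat body alone, and the matrix metalloprotease gene Mmp1 rose in both organs, further in fat body (difference 0.68, SE 0.11, adjusted p = 0.000214). Over the fits that leave out 1 library, the lower count of EGFR genes lay between 0 and 1. When single libraries were dropped, that of JNK genes lay between 0 and 1.

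Stem cell and division genes that differed were mostly higher in fat body, at shares not far above that of all genes (23.8%). Of 14 intestinal progenitor and Notch genes 4 were higher (Sox21a 2.99 with a group held at 3 reads, Sox100B 1.71, zfh2 0.76 and hdc 0.48) and 0 lower (28.6% higher), with a median of -0.02 whose sign turned with DESeq2 size factors. zfh2, a zinc finger homeobox factor, rose in fat body and did not pass in midgut, with 8.19, 9.72 and 9.36 CPM in old fat body against 3.8 and 3.58 CPM in young fat body, and 13.2 and 11.2 CPM in old midgut against 9.28 and 8.2 CPM in young midgut. The difference of zfh2 no longer passed without young fat body replicate 2, or without young midgut replicate 1, or without old midgut replicate 2. In the leave-one-out fits the higher count was 0 without young fat body replicate 2 or old midgut replicate 2, and 1 without young midgut replicate 1, and 2 without old fat body replicate 1 or old midgut replicate 1, and the lower count lay between 0 and 3. Of 34 cell cycle and replication genes 10 were higher (29.4%) and 2 lower (CycE -1.06 and CycD -0.66), against 20.4% lower over all genes. CycB, the mitotic cyclin B, had 66.7, 93.3 and 86.8 CPM in old fat body against 77.3 and 78.4 CPM in young fat body, and 1.34 and 1.83 CPM in old midgut against 5.65 and 6.16 CPM in young midgut, a difference of 1.85 (SE 0.28, adjusted p = 0.000174). mus209 (PCNA, the sliding clamp of replication) had 9.81, 12.2 and 11.8 CPM in old fat body against 6.17 and 7.38 CPM in young fat body, and 7.15 and 7.69 CPM in old midgut against 9.07 and 11.5 CPM in young midgut, a difference of 1.11 (SE 0.22, adjusted p = 0.00123). CycE, the cyclin of S phase entry, fell in fat body and was lower by the difference (difference -1.06, SE 0.20, adjusted p = 0.000833). Dropping 1 library at a time, the higher count was 4 without old midgut replicate 2, and 5 without young midgut replicate 2, and 6 without young fat body replicate 1.

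Hormone genes were mixed. Of 13 enteroendocrine genes 7 were higher (53.8%) and 2 lower (15.4%, sNPF -1.99 and CG14358 -1.54). CG14358 (CCHa1), a peptide hormone of gut endocrine cells, had 0.843, 0.635 and 0.508 CPM in old fat body against 0.869 and 1.12 CPM in young fat body, and 13.5 and 13.3 CPM in old midgut against 7.43 and 7.34 CPM in young midgut, a difference of -1.54 (SE 0.27, adjusted p = 0.000562). Nplp2, a secreted peptide gene also used as a hemocyte marker, fell in midgut alone (49.3 and 42.5 CPM in old midgut against 363 and 490 CPM in young midgut) and differed by 3.41 (SE 0.16, adjusted p = 4.68e-09). With 1 library left out, the higher count was 4 without young fat body replicate 1 or 2 or young midgut replicate 1 or old midgut replicate 2, and the lower count lay between 1 and 3. Of 17 ecdysone and juvenile hormone genes 2 were higher (Jhe 5.04 and Jheh3 1.87) and 6 lower. These are 11.8% and 35.3%, against 23.8% and 20.4% of all genes. Jheh2 and Jheh3, neighbouring epoxide hydrolases that degrade juvenile hormone, moved apart: Jheh2 had 183, 221 and 203 CPM in old fat body against 349 and 353 CPM in young fat body, and 158 and 160 CPM in old midgut against 104 and 117 CPM in young midgut (difference -1.39, SE 0.13, adjusted p = 2.94e-06), while Jheh3 had 25.9, 19.9 and 22.3 CPM in old fat body against 6.44 and 7.09 CPM in young fat body, and 506 and 545 CPM in old midgut against 577 and 638 CPM in young midgut (difference 1.87, SE 0.15, adjusted p = 3.83e-07). Over the fits that leave out 1 library, the lower count was 3 without young fat body replicate 2.

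Clock genes went both ways. Clk, the activator, had 17.8, 13.2 and 14.9 CPM in old fat body against 31.9 and 35.2 CPM in young fat body, and 38.7 and 39.4 CPM in old midgut against 24.9 and 26.1 CPM in young midgut. Clk had a log2 response of -1.26 in fat body and 0.56 in midgut, a difference of -1.82 (SE 0.16, 95% interval -2.16 to -1.48, adjusted p = 1.04e-06). per, its repressor, had 36.4, 48 and 43.1 CPM in old fat body against 21.7 and 22 CPM in young fat body, and 18.7 and 19.2 CPM in old midgut against 30.4 and 32.3 CPM in young midgut, a difference of 1.62 (SE 0.21, adjusted p = 4.83e-05). Of 11 clock genes 4 were higher (the takeout gene to at 5.62, per 1.62, sgg 0.57 and cry 0.46) and 4 lower (Clk -1.82, tim -0.70, Pdp1 -0.70 and vri -0.52), with tim, the partner of per, on the side of Clk. Over all genes 23.8% were higher and 20.4% lower. The hour of dissection, which these genes follow, is not given in the labels, so time of day and age cannot be told apart here. Of 18 autophagy genes 5 were higher (Atg7 1.48, ref(2)P 1.16, Aut1 0.57, Atg5 0.49 and CG1347 0.45) and 5 lower (Atg12 -1.17, Atg9 -0.83, Atg2 -0.54, Pi3K59F -0.45 and Atg1 -0.39). Each is 27.8% of the list, against 23.8% and 20.4% of all genes. Atg9, a membrane protein of the early autophagosome, had 85.5, 66.8 and 76.3 CPM in old fat body against 99.2 and 101 CPM in young fat body, and 56.1 and 54.5 CPM in old midgut against 44.5 and 41.4 CPM in young midgut, and Atg7, the activating enzyme, had 29.7, 19.1 and 24.2 CPM in old fat body against 14 and 15 CPM in young fat body, and 9.71 and 9.41 CPM in old midgut against 15.7 and 17.8 CPM in young midgut. Atg9 was lower in fat body by the difference (difference -0.83, SE 0.14, adjusted p = 0.000298) and Atg7 higher (difference 1.48, SE 0.27, adjusted p = 0.000655). When single libraries were dropped, the higher count was 2 without young midgut replicate 1, and 3 without young fat body replicate 1 or 2 or old midgut replicate 1 or 2, and the lower count was 3 without old midgut replicate 2. The list medians of clock, hormone and autophagy genes were -0.04, -0.08 and -0.03, and their signs turned with DESeq2 size factors.

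**Figure D5:**
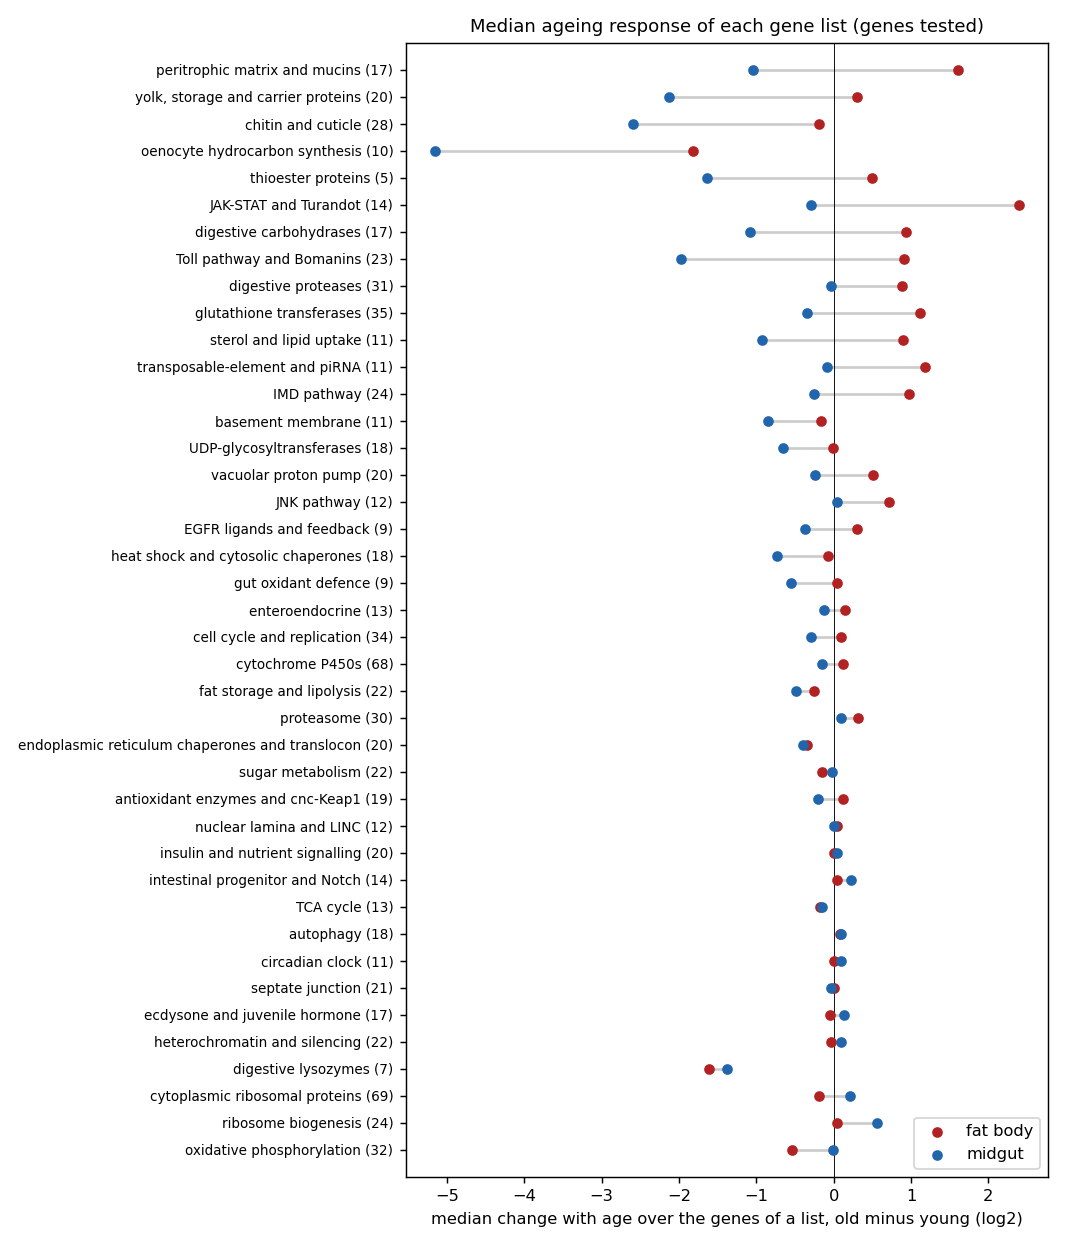
Median log2 change with age (old minus young) over the genes of 41 lists, in fat body (red) and midgut (blue), with the number of genes tested in brackets and the lists ordered by the median of the difference. Peritrophic, storage, cuticle and oenocyte lists stand at the top with midgut medians well below fat body medians, and oxidative phosphorylation and ribosome lists at the bottom with fat body medians below midgut medians.

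Lam, the lamin-B gene that RNAi targets in other libraries of the series, gave no passing difference. It had 41.2, 50.8 and 42 CPM in old fat body against 38.4 and 39 CPM in young fat body, and 32.9 and 31.4 CPM in old midgut against 28.9 and 32.1 CPM in young midgut (chromosome 2L, 5542526 to 5546642, plus strand). The difference was 0.06 (SE 0.16, 95% interval -0.28 to 0.40, adjusted p = 0.802), an interval that excludes 2-fold in either direction. Of 12 lamina and LINC genes 2 were higher (kuk 0.83 and nuf 0.46) and 2 lower (MAN1 -1.03 and koi -0.66). Each is 16.7% of the list, below the 23.8% and 20.4% of all genes. MAN1, an inner nuclear membrane protein of the LEM family, had 38.3, 32.7 and 35.2 CPM in old fat body against 63.8 and 60.8 CPM in young fat body, and 18.9 and 19.4 CPM in old midgut against 17.2 and 17.5 CPM in young midgut. MAN1 had a log2 response of -0.94 in fat body and 0.09 in midgut, a difference of -1.03 (SE 0.11, 95% interval -1.26 to -0.80, adjusted p = 5.51e-06). In the leave-one-out fits the higher count lay between 1 and 3, and the lower count lay between 1 and 2. Of 22 heterochromatin and silencing genes 4 were higher (piwi 1.95, AGO2 0.92, Pc 0.55 and Su(var)3-7 0.35) and 3 lower (Dcr-2 -1.42, ph-p -0.58 and Su(var)205 -0.35). At 18.2% and 13.6%, both shares were below those of all genes. Dcr-2, the nuclease that makes small interfering RNA, had 109, 80.7 and 98.4 CPM in old fat body against 157 and 155 CPM in young fat body, and 118 and 113 CPM in old midgut against 70.5 and 76.2 CPM in young midgut, a difference of -1.42 (SE 0.13, adjusted p = 2.43e-06). Su(var)205, which encodes the heterochromatin protein HP1a, did not pass in fat body (-0.02), rose in midgut (0.33) and differed by -0.35 (SE 0.12, adjusted p = 0.0271). The difference of Su(var)205 no longer passed without young fat body replicate 1 or 2, or without young midgut replicate 1 or 2, or without old midgut replicate 1 or 2. Dropping 1 library at a time, the higher count was 0 without young fat body replicate 1 or 2 or young midgut replicate 1 or old midgut replicate 2, and 1 without young midgut replicate 2, and 2 without old midgut replicate 1.

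Germ line small RNA genes were low in both organs and higher in old fat body. Of 11 piRNA and transposon control genes 6 were higher (54.5%) and 0 lower (median 1.61). aub, a Piwi-family protein of the germ line, had 11.1, 16.3 and 13.7 CPM in old fat body against 4.4 and 5.21 CPM in young fat body, and 0.312 and 0.255 CPM in old midgut against 1.79 and 1.52 CPM in young midgut. aub had a log2 response of 1.38 in fat body and -2.62 in midgut, a difference of 4.01 (SE 0.39, 95% interval 3.15 to 4.86, adjusted p = 3.6e-06). vas, a germ line helicase, had 8.75, 14.3 and 12.2 CPM in old fat body against 3.51 and 2.91 CPM in young fat body, and 0.0937 and 0.141 CPM in old midgut against 0.732 and 0.911 CPM in young midgut, a difference of 4.48 (SE 0.56, adjusted p = 3.13e-05). Of 10 ovary and eggshell markers, which include vas itself, 4 rose in fat body and 7 fell in midgut. Their sum was 154, 329 and 272 CPM in old fat body against 159 and 159 CPM in young fat body, and 24.3 and 22.6 CPM in old midgut against 35.3 and 35.2 CPM in young midgut, and their part in these values was not tested. Septate junction genes, which seal epithelia, passed rarely: of 21, 4 were higher (CG6981 2.04, Tsp2A 1.45, Nrx-IV 0.42 and Nrg 0.40) and 1 lower (Mcr -0.40). These are 19% and 4.76%, against 23.8% and 20.4% of all genes. CG6981 (Ssk), a junction protein of gut epithelium, had 77.3, 23.4 and 48.8 CPM in old fat body against 9.35 and 7.57 CPM in young fat body, and 366 and 353 CPM in old midgut against 252 and 280 CPM in young midgut, a difference of 2.04 (SE 0.47, adjusted p = 0.00433). With 1 library left out, the higher count was 2 without young midgut replicate 2 or old midgut replicate 2, and the lower count lay between 1 and 3.

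Muscle transcripts fell in both organs, and which muscle they came from was not tested. In fat body 2 rose and 16 fell with age (median -0.96), and in midgut 1 rose and 19 fell (median -1.43), over 20 genes. Mhc, the muscle myosin heavy chain, had 813, 1617 and 1212 CPM in old fat body against 3083 and 3028 CPM in young fat body, and 448 and 401 CPM in old midgut against 1129 and 1196 CPM in young midgut, with responses of -1.45 in fat body and -1.51 in midgut (difference 0.06, SE 0.31, adjusted p = 0.895). The difference was higher in 10 (50%) and lower in 2 (10%) of the 20 genes, against 23.8% and 20.4% of all genes. Act79B, an actin of tubular muscle, had 26.2, 29.3 and 28 CPM in old fat body against 114 and 125 CPM in young fat body, and 5.93 and 6.25 CPM in old midgut against 3.69 and 4.22 CPM in young midgut. Act79B had a log2 response of -2.22 in fat body and 0.58 in midgut, a difference of -2.80 (SE 0.15, 95% interval -3.13 to -2.47, adjusted p = 1.45e-08). TpnC73F, a troponin C, had the opposite pattern (difference 2.82, SE 0.23, adjusted p = 5.91e-07). Over the fits that leave out 1 library, the lower count lay between 1 and 4.

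Outside the lists, the strongest negative differences among genes expressed in both organs came from genes that fell in fat body and rose in midgut. phr (chromosome 2R, 3712996 to 3714824, plus strand), a photolyase-family gene of ultraviolet damage repair, had 7.82, 5.93 and 6.96 CPM in old fat body against 36.5 and 38.6 CPM in young fat body, and 12.8 and 14.6 CPM in old midgut against 1.49 and 2.13 CPM in young midgut. phr had a log2 response of -2.57 in fat body and 2.87 in midgut, a difference of -5.44 (SE 0.28, 95% interval -6.05 to -4.84, adjusted p = 9.34e-09). ninaD, a scavenger receptor that takes up carotenoids for vitamin A synthesis, had 5.31, 14 and 8.39 CPM in old fat body against 49.7 and 50.4 CPM in young fat body, and 907 and 925 CPM in old midgut against 185 and 245 CPM in young midgut. ninaD had a log2 response of -2.56 in fat body and 2.04 in midgut, a difference of -4.60 (SE 0.44, 95% interval -5.55 to -3.65, adjusted p = 4e-06). shd, the hydroxylase that makes the active form of ecdysone, had 2.92, 2.17 and 3.31 CPM in old fat body against 10.6 and 10.3 CPM in young fat body, and 28.7 and 29 CPM in old midgut against 5.88 and 6.79 CPM in young midgut, a difference of -4.15 (SE 0.26, adjusted p = 5.71e-08). In these 3 genes old and young libraries were apart in both organs, with both old midgut libraries above the young ones. GABA-B-R2, a metabotropic GABA receptor, reached 5.87 and 5.91 CPM in old midgut against 0.79 and 1.02 CPM in young midgut, a difference of -3.44 (SE 0.39, adjusted p = 1.38e-05). bnb, Mdr50, a multidrug transporter, and slo, a calcium-activated potassium channel, followed with differences of -2.22, -2.10 and -2.09 (adjusted p = 1.48e-05, 0.000205 and 4.18e-06).

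Genes of 1 organ changed there without a counterpart. Syt4, a synaptotagmin of vesicle fusion, was under 1 CPM in every midgut library and had 2.98, 2.78 and 2.21 CPM in old fat body against 56.9 and 60.3 CPM in young fat body, a fat body response of -4.59 (SE 0.12, adjusted p = 6.5e-11). Ccp84Ag and Cpr64Ac, cuticle protein genes, fell as well, by 4.24 and 3.35 on the log2 scale. Sp1, a zinc finger factor, and Ir47a, an ionotropic receptor, rose in fat body, but unevenly: Sp1 was at 2.72, 14.8 and 9.45 CPM in old fat body against 0.24 and 0.0887 CPM in young fat body, with replicate 1 far below replicate 2. Sgs5, a salivary glue gene, was counted as lower in old fat body, but was high in young fat body replicate 1 alone, with 0, 0.053 and 0 CPM in old fat body against 10.5 and 0 CPM in young fat body. In midgut Npc2c, of the sterol-binding Npc2 family, had 55.3 and 65.4 CPM in old midgut against 0.0878 and 0.359 CPM in young midgut and was at 0 or close to it in fat body, with a midgut response of 8.0 (adjusted p = 5.29e-09). PGRP-SC1a, an amidase of the gut, had 3.47 and 2.31 CPM in old midgut against 192 and 172 CPM in young midgut, a midgut response of -6.08 (adjusted p = 1.34e-09). Muc14A fell too (1.75 and 1.07 CPM in old midgut against 9.81 and 11.9 CPM in young midgut).

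A few strong responses were shared. aay, a phosphoserine phosphatase gene, rose in both organs, with 609, 701 and 655 CPM in old fat body against 129 and 130 CPM in young fat body, and 746 and 768 CPM in old midgut against 94.7 and 106 CPM in young midgut. Its responses were 2.22 in fat body and 2.87 in midgut (difference -0.65, SE 0.13, adjusted p = 0.00105), so the rise was larger in midgut but within 2-fold. kuz, the ADAM protease that releases Notch, had 83.6, 44.1 and 61.4 CPM in old fat body against 28.6 and 29.1 CPM in young fat body, and 31.6 and 24.3 CPM in old midgut against 11.8 and 13.6 CPM in young midgut. Jafrac1 (Prx2), a peroxiredoxin that removes peroxide, had 843, 437 and 600 CPM in old fat body against 290 and 315 CPM in young fat body, and 788 and 839 CPM in old midgut against 378 and 414 CPM in young midgut. In bnl, the FGF ligand of tracheal branching, the responses were 0.89 in fat body and 0.83 in midgut (difference 0.06, SE 0.23, adjusted p = 0.859), and in GstE5 0.87 in fat body and 0.81 in midgut (difference 0.07, SE 0.22, adjusted p = 0.834). Odc1, the first enzyme of polyamine synthesis, fell in both organs, with 79.7, 109 and 94.5 CPM in old fat body against 388 and 381 CPM in young fat body, and 1.69 and 1.52 CPM in old midgut against 4.24 and 7.62 CPM in young midgut. Ance-4, a peptidase-family gene, Cda5, a chitin deacetylase, and gk (geko), an odour response gene, fell in both as well, with differences of 0.41, -0.52 and -0.37 (adjusted p = 0.192, 0.0757 and 0.123). For kuz, Jafrac1, bnl, GstE5, Odc1, Ance-4, Cda5, gk and Mhc the difference missed the threshold, and by the rule that chose them its 95% interval lay within 2-fold.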

How the data were processed

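RNA of dissected fat body, midgut and whole gut was sequenced as poly-A selected Illumina libraries, per the labels' protocols. The authors deposited 1 table of raw read counts per annotated gene for each of the 17 libraries, per the file headers. CASAVA 1.8, TopHat2 and edgeR are named in the submitters' processing notes; the counting tool, strand setting, treatment of multi-mapping reads and genome build are not given in the sources used here. The 15080 entries of each table, several of which repeat a gene under the same position and count, were merged to 14095 loci, leaving 29 positions with unequal counts apart. Coordinates are those of the files, and RefSeq's annotation was used for names only (14020 loci matched). No sequence is printed.

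Counts were fitted with edgeR 4.0.16 in R 4.3.3 (limma 3.58.1): TMM factors, filterByExpr, robust quasi-likelihood fit over 8 groups of all 17 libraries, Benjamini-Hochberg adjusted p below 0.05. The biological coefficient of variation was 13.9% over all libraries (9 residual degrees of freedom), 19.4% in a fit of fat body and 6.61% in a fit of midgut libraries alone. On simulated data of the same design the test of the difference found 64% of 100 genes changed 2-fold and 89% of 100 changed 4-fold, with 2 false calls among 11128 genes. The changed genes were drawn without those of low mean count and were changed in old fat body alone. Each gene had the same spread in every library, unlike the real organs. These rates therefore need not hold for the real libraries or for genes of low count. Levels are CPM of the library total, and levels of different genes were not compared. Python 3.11.15, numpy 2.4.6, pandas 2.3.3 and matplotlib 3.10.9 made tables and figures.

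The design text calls the replicates biological; whether they came from separate flies or dissections is not given, so p-values measure the spread between these libraries. Replicate pairs differed far beyond counting noise (chi-square per gene 10.3 to 319), so none was counted as a duplicate; this does not show that old fat body replicate 3, which lies between replicates 1 and 2, is independent of them. The members and the 54 gene lists (1045 entries, 37 without a match, 112 matched by a synonym) were chosen with earlier results of these data known. Named genes were the strongest differing, opposite, organ-restricted and shared responses among genes with symbols, and, in each list, at most 4 genes with the lowest p of the difference; those named in brackets beside counts of 5 or fewer were chosen after their values were seen. Alternatives covered scaling, count filters, DESeq2 1.42.0, limma-voom, the libraries fitted, a replicate block, stricter thresholds and leaving out each library. Strand being unknown, counts are less certain where annotated genes overlap; among those named these are AGO2, Acsl, Atg1, Atg12, Atg5, Atg7, AttB, BG4, CG11299, CG11784, CG18609, CG6981, Clk, Cyp28d1, Cyp4e1, Cyp4g1, Cyp4p2, Cyp6a2, Dcr-2, Def, Egfr, GstD9, Hsp22, Idgf1, Jra, Lsd-1, LysP, MTF-1, Mdr50, Mmp1, Muc96D, Mur2B, Ndg, Nop60B, Nrg, Nrx-IV, PGRP-SA, PGRP-SD, Pc, Pi3K59F, RpL23, Rpt4, Su(var)205, Su(var)3-7, TotX, Tps1, Tsp2A, VhaM9.7-1, aay, betaTry, bnb, fit, hdc, kuz, l(2)efl, nuf, per, phr, piwi, ref(2)P, skap, slo, tobi and vas. Near-identical copies (AttA and AttB, CecA1 and CecA2, Jon99Cii and Jon99Ciii, Jon66Ci and Jon66Cii, betaTry and its trypsin neighbours, Amy-d and Amy-p, PGRP-SC1a and PGRP-SC1b) are uncertain in the same way.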

Additional observations from a re-analysis of the deposited data

Results flagged for a closer look

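The ageing responses of 16 genes are listed here, out of 1179 that passed in opposite directions in fat body and midgut, with the difference passing as well. They are the 8 of each pattern whose smaller change of both organs was largest, among genes with symbols expressed in both organs. In all 16, every library pair of 1 organ lay apart from every pair of the other. Of these, 8 encode antimicrobial peptides that rose in old fat body and fell in old midgut, with log2 differences of 20.78 (Dro), 20.74 (AttA), 20.61 (CecB), 20.11 (CecA1), 19.86 (Dpt), 19.73 (CecA2), 18.88 (AttB) and 17.55 (AttD). CecB had no read in old midgut, and with that group held at 3 reads its difference was 17.19. The very large sizes rest on few reads in old midgut: 13 for Dro, 9 for AttA and 5 for CecA1 over both libraries.

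The other 8 fell in old fat body and rose in old midgut: -5.44 for phr, -4.60 for ninaD, -4.15 for shd, -3.46 for Cyp6a2, -2.79 for Cyp6t1, -2.22 for bnb, -2.10 for Mdr50 and -2.09 for slo. Their levels in the other libraries of the series stood as follows. phr had 13 and 12.9 CPM in Lam RNAi fat body and 7.88 and 5.62 CPM in Lam RNAi midgut. ninaD had 9.58 and 10.8 CPM in Lam RNAi fat body and 703 and 636 CPM in Lam RNAi midgut. In whole gut, phr was at 31 and 31.6 CPM in old against 23.4 and 16 CPM in young libraries, and ninaD at 174 and 133 CPM in old against 49.3 and 49.9 CPM in young libraries.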

How the results depend on the processing

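2 orders turned. With upper quartile factors 2486 genes were higher and 2682 lower in fat body, and with 1 fit per organ (4141 in fat body, 5487 in midgut) or limma-voom weighted per organ (4372 and 5455) midgut had more changed genes than fat body. Leaving out 1 library gave 3878 to 5586 differing genes (2140 to 2932 higher, 1738 to 2661 lower), 3942 to 5970 changed in fat body, 2293 to 4811 in midgut and 745 to 1549 in opposite directions. Without old midgut replicate 2, 2293 genes changed in midgut and 745 moved in opposite directions. At an adjusted p below 0.01 the counts were 1489 lower genes, 2441 changed in midgut and 656 opposite. With a change of at least 2-fold required they were 2620 differing, 744 lower, 2137 changed in fat body, 1641 in midgut and 408 opposite. Without the genes at least 4 times higher in 1 young organ, a choice made after seeing the data, 2433 changed in midgut and 778 were opposite. These stricter settings call fewer genes by construction.

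The share of differing genes that were higher in fat body was 53.8% with TMM, 64.5% with DESeq2 size factors, 64.4% with DESeq2, 60.3% with total counts, 61.5% in a fit of the 9 libraries alone and 48.1% with upper quartile factors; the cause was not tested. Medians of the TCA, antioxidant, autophagy, clock, hormone, insulin, progenitor, neuron, lamina, septate junction and sugar lists turned sign with at least 1 of these scalings. With a replicate block 4294 genes differed. Deviations of same-numbered libraries from their group means were nearly uncorrelated across genes (correlations -0.0364 to 0.0848). In groups of 2 libraries these deviations mirror each other, so both replicate numbers give the same value. Whether same-numbered libraries share flies or a dissection cannot be told from this. Of 5186 values of the 243 named genes over all alternatives, 4981 kept their direction and side of the threshold, 176 no longer passed and 29 passed newly. Depth limits genes near 3 reads, whose sizes are bounds.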

Other observations

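Transcripts of tissues that adjoin the dissected organs were measured beside the main groups. The 8 tracheal markers, genes of the air tubes that enter both organs, summed to 371, 388 and 370 CPM in old fat body against 723 and 692 CPM in young fat body, and 59.1 and 52.7 CPM in old midgut against 110 and 137 CPM in young midgut. In fat body 6 of them fell and in midgut 7, with medians of -0.84 and -0.87. Markers of the Malpighian tubule, the renal organ that joins the gut at the hindgut, summed to 187, 416 and 320 CPM in old fat body against 235 and 240 CPM in young fat body, and 861 and 896 CPM in old midgut against 649 and 809 CPM in young midgut. Most of these 9 genes did not follow the midgut sum: 0 rose and 6 fell in midgut (median -1.73). In fat body 1 rose and 2 fell. Hindgut markers summed to 94.4, 105 and 99 CPM in old fat body against 64 and 65.4 CPM in young fat body, and 473 and 415 CPM in old midgut against 421 and 429 CPM in young midgut, and markers of salivary gland, crop and cardia to 16.3, 67.1 and 45.3 CPM in old fat body against 42.2 and 32.8 CPM in young fat body, and 131 and 122 CPM in old midgut against 145 and 142 CPM in young midgut. Neuronal markers summed to 97.7, 137 and 125 CPM in old fat body against 135 and 133 CPM in young fat body, and 26.2 and 22.5 CPM in old midgut against 27.9 and 28.1 CPM in young midgut. By the difference 6 of 8 hindgut markers were higher (75%) and 0 lower, against 23.8% and 20.4% of all genes. In fat body 5 of them rose and 0 fell (median 0.87), and in midgut 0 rose and 1 fell. Of 9 neuronal markers 1 was higher (11.1%) and 2 lower (22.2%). Of 5 markers of salivary gland, crop and cardia 1 was higher (20%) and 0 lower. The sums enter no test, and the part of such tissue in the responses of other genes was not tested.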
